A study of Saccharomyces cerevisiae with 13 samples.

Results

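The 10 genes described here code for the core of the cell wall integrity pathway of *Saccharomyces cerevisiae*. They were chosen by gene name, with earlier results of these data known, and are 10 of the 7126 rows counted in the series. They are the sensors *WSC1* (listed in the files under its older name *SLG1*), *WSC2* and *MID2*, the GTPase gene *RHO1*, the kinase genes *PKC1*, *BCK1*, *MKK1*, *MKK2* and *SLT2*, and the transcription factor gene *RLM1*. All 10 had a row in each of the 13 libraries, and all 10 passed the filter on low counts in every comparison.

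The wall of a yeast cell is a mesh of glucan, chitin and mannoproteins that must be repaired when it is stretched or damaged. Sensors in the plasma membrane report damage through exchange factors to the GTPase Rho1, which switches on protein kinase C (Pkc1). Pkc1 starts a kinase cascade that runs from Bck1 through Mkk1 and Mkk2 to the MAP kinase Slt2, also called Mpk1, and Slt2 activates the transcription factors Rlm1 and Swi4/Swi6. Caffeine, an inhibitor of the TOR kinase, is widely used to switch the cascade on. The cascade works by phosphorylation, which read counts do not measure, so the values below are transcript levels and not pathway activity.

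The series asked how *S. cerevisiae* responds to caffeine and what the stress transcription factor Yap1 contributes, using QuantSeq, a method that reads the 3′ end of mRNA. All cells were BY4741, a haploid laboratory strain of mating type a. Untreated WT and WT treated with 50 mM caffeine for 1 h carried no plasmid and had 2 libraries each, although 1 of the caffeine libraries is labelled 51 mM. WT with the empty vector pRS426ADH, the *yap1* deletion mutant with the same vector, and WT with pRS426ADH-YAP1 (the Yap1 overexpression strain, in which the high-copy plasmid drives *YAP1* from the *ADH1* promoter) had 3 libraries each. The labels of these 9 plasmid libraries name no caffeine, and the study's strain list gives the plasmid's Yap1 a TAP tag that the labels do not. Whether the replicates came from separate cultures is not stated, so the p-values measure the spread between these libraries, which may be technical.

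Total counts ranged from 15508616 to 17387215 in the libraries without plasmid and from 19375047 to 25609092 in the plasmid libraries. The 15 rRNA rows took 14.66 to 18.45% of the counts in untreated WT, 22.66 to 27.35% in caffeine-treated WT, 62.27 to 74.97% in WT with vector, 51.22 to 58.24% in the mutant without *YAP1* and 43.84 to 63.95% in the overexpression strain, which left at least 6409605 counts in each library. *YAP1* had 635 to 722 counts in WT with vector, 23285 to 25251 in the Yap1 overexpression strain and 2 to 22 in the *yap1* mutant, so the plasmid libraries matched their labels. The plasmid marker *URA3* had 0 counts in each library without plasmid. Neither gene checks which of the libraries without plasmid had caffeine. Replicate 2 of WT with vector stood apart. Its log2 levels over all genes lay 0.55 (SD) from its group mean, against 0.30 and 0.34 in the other libraries of that group and at most 0.19 in the other plasmid libraries. It is also the only plasmid library whose gene names follow the version used in the libraries without plasmid. Plasmid, and possibly medium and sequencing run, separate the 4 libraries without plasmid from the other 9, and their parts in any difference between these sets cannot be told apart.

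Rlm1 is known to bind a sequence that starts with CTA and ends with TAG, with 4 bases between them that are mostly A or T. The following windows are shown because they place this motif upstream of members of the pathway itself. The 500 bases upstream of the start codon held CTA and TAG parted by any 4 bases, which reads the same on both strands in these letters, in 3 of the 10 signalling genes (*RLM1*, *MKK1* and *BCK1*), in 5 of 20 other regulators of the pathway and in 7 of 14 wall genes known as its outputs. Among the 6000 genes of the RefSeq R64 annotation with such a window, 556 (9.27%) held it. With only A or T in the 4 central bases, the counts were 3 of 10, 3 of 20 and 6 of 14, against 109 of all genes (1.82%). The output genes were listed because they are known targets, so their share is no independent result. The sequences below run 5′ to 3′ on the strand of the gene, with the motif in capitals, and come from RefSeq R64.
RLM1, chrXVI:381439-381468, minus strand: gagatgaaagCTAATAATAGaaacagctcg
MKK1 far site, chrXV:772158-772187, plus strand: atgcttttaaCTATTATTAGtttttctcac
MKK1 near site, chrXV:772236-772265, plus strand: tatgtatgagCTACTGTTAGtatatttatt
BCK1, chrX:247207-247236, plus strand: gtacgaaacaCTAAATATAGtattaaaata
PTP2, chrXV:733873-733902, plus strand: atccccagtgCTATTAATAGtttacaataa
PST1, chrIV:563212-563241, plus strand: ttacgagtctCTAAAAATAGcgtaggcaca
CWP1, chrXI:260736-260765, plus strand: tacgtcataaCTAAAAATAGcgttagccac

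*PTP2* codes for a phosphatase that acts on Slt2, and *PST1* and *CWP1* code for proteins of the wall. *PST1* and *CWP1* held the same 10 letters and are shown because they moved in opposite directions under caffeine, as described below. The windows of *SLT2*, *MKK2*, *WSC1*, *WSC2*, *MID2*, *RHO1* and *PKC1* held no match. The Swi4/Swi6 letters CACGAAA or CGCGAAA, searched on both strands like the motifs that follow, were in none of the 10 windows, against 12.5% of all windows. The Yap1 letters TTACTAA or TGACTAA were in 1 window, that of *WSC1*, against 17.0% of all windows. The letters AGGGG, bound by the general stress factors Msn2 and Msn4, were in 4 windows (*WSC1*, *RHO1*, *PKC1* and *BCK1*), against 34.1% of all. A match is a description of the letters and not a bound site.

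Caffeine-treated WT had higher transcript levels of the MAP kinase gene, both MAPK kinase genes, the transcription factor gene and sensor genes *WSC1* and *MID2*. *RLM1* rose 3.11-fold, *SLT2* 3.07-fold, *MID2* 2.67-fold, *WSC1* 2.59-fold, *MKK2* 1.87-fold and *MKK1* 1.84-fold. The genes between the sensors and the MAPK kinases (*RHO1*, *PKC1* and *BCK1*) did not pass the test, and neither did *WSC2*, which was the only member with lower levels in both caffeine libraries than in both untreated ones. In all, 6 of the 10 genes were called higher and 0 lower by edgeR at an adjusted p under 0.05. Over all 6759 genes tested, 22.2% were called higher and 23.6% lower. The libraries of the 2 groups did not overlap for 7 of the 10 genes, against 75.2% of all genes tested, so the share without overlap was near the background. The median log2 fold change of the 10 genes was 0.89, beside -0.00 for all genes.

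**Figure D1:**
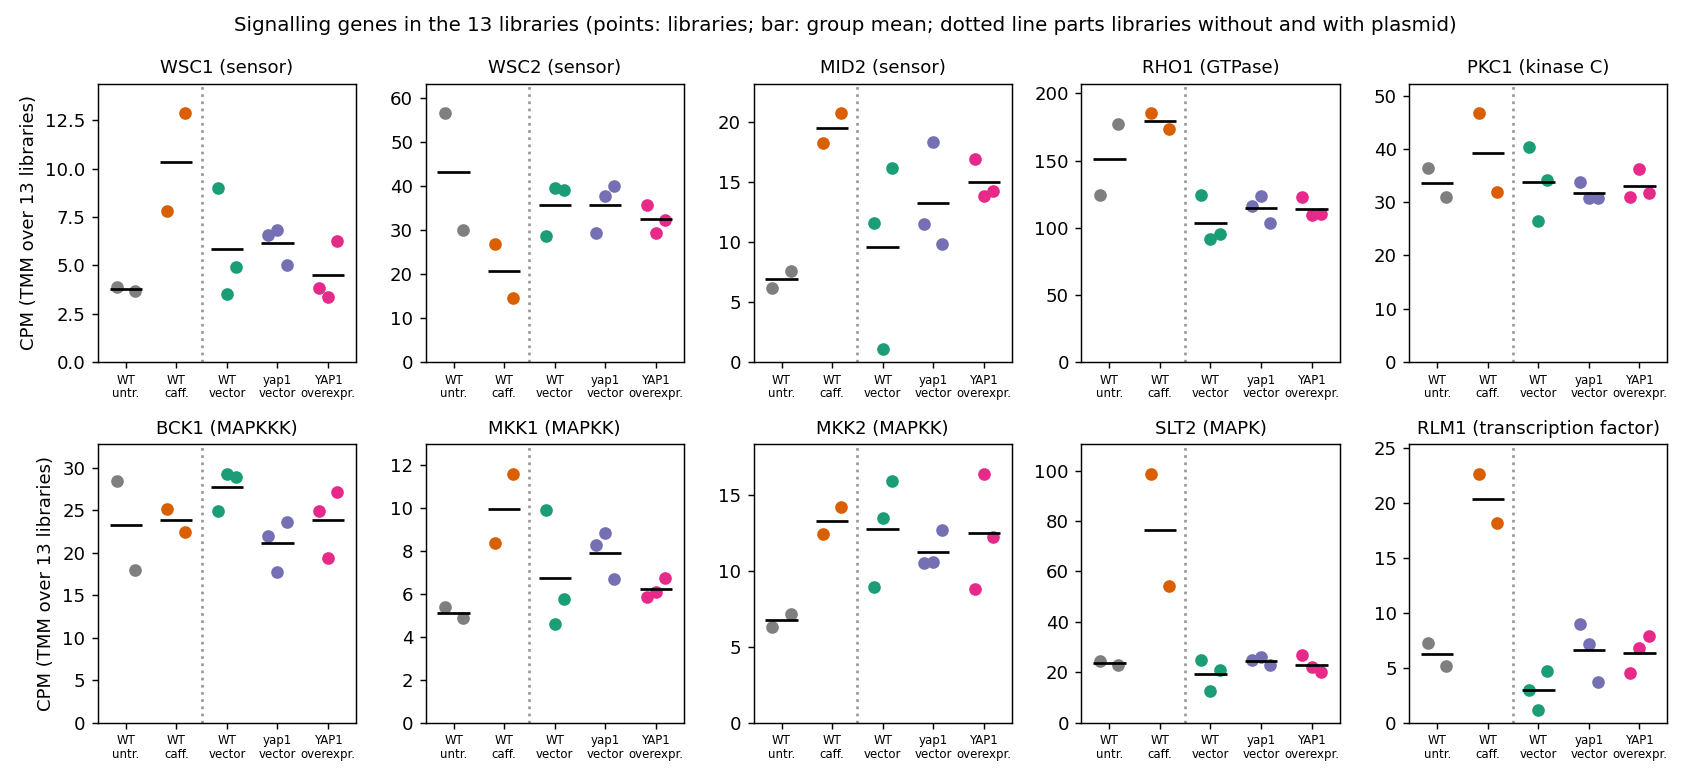
Normalised level (CPM with 1 TMM scaling of the 13 libraries) of each signalling gene, 1 panel per gene, with a point per library, a bar at each group mean and a dotted line between libraries without and with plasmid. Both caffeine libraries lie above both untreated ones for *WSC1*, *MID2*, *MKK1*, *MKK2*, *SLT2* and *RLM1*, and below them for *WSC2*.

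Levels are given below as CPM (counts scaled to a common library size) under a single TMM scaling of the 13 libraries, so that the 5 groups share a scale, and fold changes come from the edgeR fit of each comparison. The reads lie at 3′ ends, and levels are compared between groups and not between genes. The sensors are proteins of the plasma membrane that reach into the wall. *WSC1* (chrXV:341278-342414, minus strand, 1 exon) was at 3.88 and 3.65 CPM in untreated WT and at 7.83 and 12.9 CPM in caffeine-treated WT. Both caffeine libraries were above both untreated ones, with a log2 fold change of 1.38 (SE 0.33, 95% confidence interval 0.57 to 2.18, n = 2 per group, edgeR adjusted p = 0.017). *MID2* (chrXII:790676-791806, plus strand, 1 exon), a sensor with a role in the response to mating pheromone, was at 6.18 and 7.58 CPM in untreated WT and at 18.2 and 20.7 CPM after caffeine. The groups did not overlap, and the log2 fold change was 1.42 (SE 0.23, interval 0.86 to 1.98, edgeR adjusted p = 0.00442). The gene overlaps *JIP3* on the annotation, and no source used here says that counting used strand, so reads of the pair may not be told apart.

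*WSC2* (chrXIV:105184-106695, minus strand, 1 exon), which codes for a sensor of the same family as Wsc1, went the other way in level. It was at 56.5 and 30.0 CPM in untreated WT and at 26.9 and 14.6 CPM in caffeine-treated WT, without overlap. The log2 fold change of -1.14 (SE 0.43, interval -2.18 to -0.09) missed the threshold by edgeR (adjusted p = 0.0744). The gene was called lower by DESeq2 (adjusted p = 0.0215), with upper quartile scaling (adjusted p = 0.0472) and in 1 fit of the 13 libraries (adjusted p = 0.0148), and leaving out 1 library at a time by edgeR gave log2 fold changes from -1.67 to -0.57 (adjusted p from 0.0446 to 0.348).

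Rho1 is the GTPase that activates Pkc1 and the glucan synthase of the wall. *RHO1* (chrXVI:875368-875997, plus strand) was at 124 and 177 CPM in untreated WT and at 185 and 174 CPM after caffeine, and the groups overlapped. *PKC1* (chrII:14241-17696, minus strand) was at 36.4 and 31.0 CPM in untreated WT and at 46.7 and 32 CPM after caffeine, again with overlap. *BCK1* (chrX:247255-251691, plus strand), which codes for the MAPK kinase kinase, was at 28.4 and 18 CPM in untreated WT and at 25.2 and 22.5 CPM after caffeine, so the caffeine values lay within the untreated ones. The 95% intervals of the log2 fold change were -0.48 to 0.82 for *RHO1*, -0.49 to 0.79 for *PKC1* and -0.71 to 0.63 for *BCK1* (edgeR adjusted p = 0.627, 0.676 and 0.917). These intervals bound the change and do not show that the levels were equal.

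Mkk1 and Mkk2 are a pair of MAPK kinases with overlapping roles that phosphorylate Slt2. *MKK1* (chrXV:772601-774127, plus strand) was at 5.37 and 4.87 CPM in untreated WT and at 8.38 and 11.6 CPM in caffeine-treated WT. *MKK2* (chrXVI:287514-289034, minus strand) was at 6.32 and 7.14 CPM in untreated WT and at 12.4 and 14.2 CPM after caffeine. For each gene both caffeine libraries were above both untreated ones. The log2 fold change was 0.88 (SE 0.28, interval 0.19 to 1.57, edgeR adjusted p = 0.0453) for *MKK1* and 0.90 (SE 0.24, interval 0.33 to 1.48, edgeR adjusted p = 0.0232) for *MKK2*. Both calls were lost with any 1 of the 4 libraries left out, with adjusted p from 0.0576 to 0.21 for *MKK1* and from 0.0607 to 0.0995 for *MKK2*.

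*SLT2* (chrVIII:168890-170344, minus strand, 1 exon), the MAP kinase at the end of the cascade, had 545 and 560 counts in untreated WT and 2706 and 1448 counts in caffeine-treated WT. These were 24.6 and 22.7 CPM in untreated WT and 98.6 and 54.1 CPM after caffeine. The caffeine libraries were both above the untreated ones but differed between themselves by more than the untreated ones did. The log2 fold change was 1.62 (SE 0.33, interval 0.80 to 2.44, edgeR adjusted p = 0.011). Without the first caffeine library it was 1.09 (adjusted p = 0.0257) and without the second it was 2.00 (adjusted p = 0.00606), and without the first or the second untreated library the call was lost (adjusted p = 0.0549 and 0.0604).

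*RLM1* (chrXVI:379120-381150, minus strand, 1 exon), which codes for the MADS-box factor that Slt2 activates, was at 7.22 and 5.19 CPM in untreated WT and at 22.6 and 18.1 CPM in caffeine-treated WT. The groups were well apart, with a log2 fold change of 1.64 (SE 0.28, interval 0.96 to 2.31, edgeR adjusted p = 0.00504). *RLM1* and *MID2* were the only members of the 10 whose calls held with each of the 4 libraries left out, with log2 fold changes from 1.45 to 1.94 and from 1.33 to 1.63. With 1 fit of the 13 libraries, *MID2* had a log2 fold change of 1.5 and was not called (adjusted p = 0.133). The call of *WSC1* was lost in 3 of the 4 cases, without either untreated library or without the second caffeine library (log2 fold change from 1.00 to 1.67 over the 4 cases). The share of rRNA counts was higher in both caffeine libraries than in both untreated ones (values above), and its part in these changes was not tested. With library totals that left the rRNA rows out, 5 of the 6 calls held and *MKK1* missed the threshold (edgeR adjusted p = 0.052). TMM was still applied after that change of totals and largely offsets it, so this setting does not test the rRNA share.

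**Figure D2:**
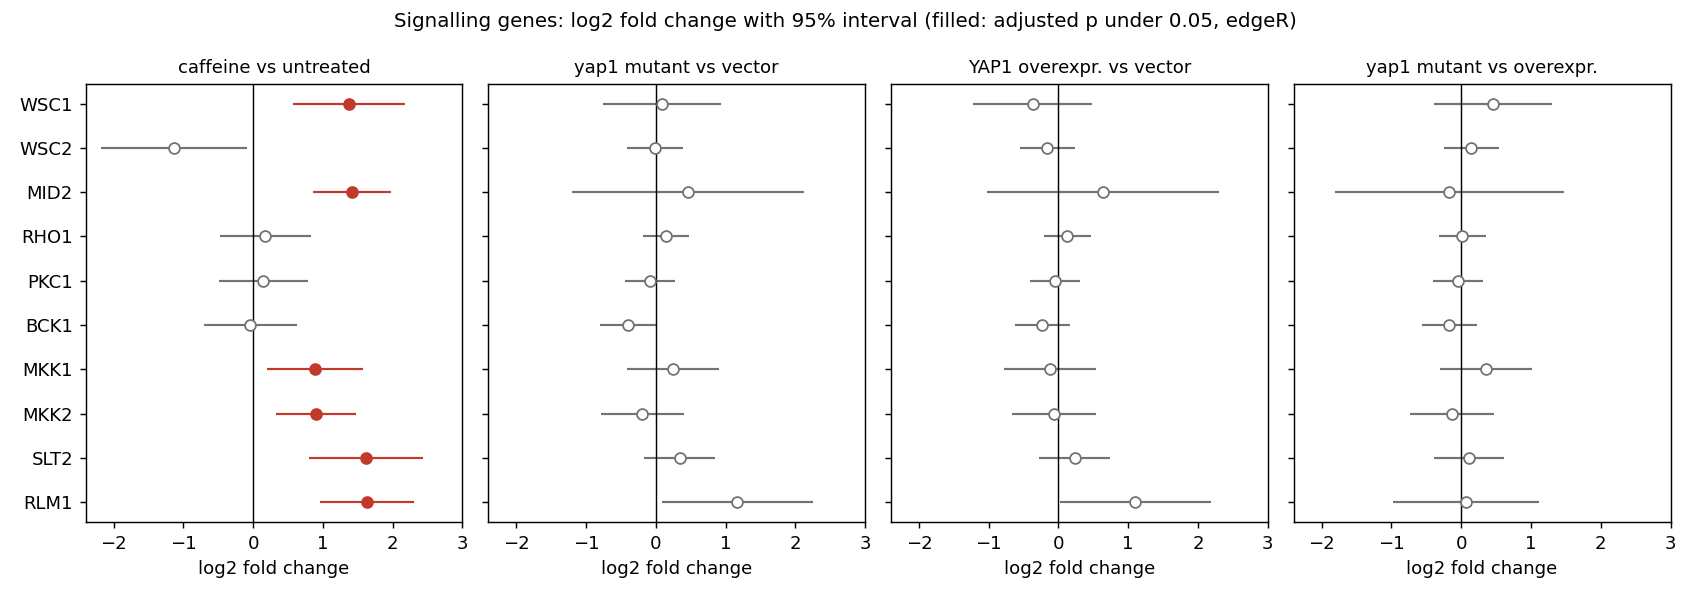
Log2 fold change of the 10 signalling genes with its 95% confidence interval (x axis), 1 row per gene and 1 panel for each of the 4 comparisons, with filled points for an edgeR adjusted p under 0.05. The 6 genes called by edgeR are in the caffeine comparison, from 0.88 (*MKK1*) to 1.64 (*RLM1*), and no gene is called in the panels of the plasmid libraries, where the intervals of *MID2* and *RLM1* are wide.

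The genes around the cascade were read from a list of 20 further regulators, which include sensors, exchange factors, GTPase-activating proteins and phosphatases. Under caffeine 7 of the 20 were called higher, 4 lower and 9 were not called, with a median log2 fold change of 0.13. Over all genes tested the shares were 22.2% higher and 23.6% lower (above), so the share of regulators called lower was near that of all genes. Of the 3 exchange factor genes that load Rho1 with GTP, all were called higher, *ROM1* with a log2 fold change of 2.44 (SE 0.21), and *ROM2* (1.01) and *TUS1* (0.99), the latter pair named after their values were seen. The sensor gene *MTL1*, a relative of *MID2*, had the second largest rise, from 0.677 and 0.649 CPM to 10.2 and 8.75 CPM (log2 fold change 3.75, SE 0.34, edgeR adjusted p = 0.000909). The other sensors of the *WSC* family on the list, *WSC3* and *WSC4*, were not called.

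The regulators that act against the cascade moved in both directions. *BAG7*, which codes for a GTPase-activating protein that switches Rho1 off, was at 1.13 and 3.45 CPM in untreated WT and at 45.7 and 23.3 CPM after caffeine, the largest rise of the list (log2 fold change 3.83, SE 0.60, edgeR adjusted p = 0.00414). *LRG1*, which codes for another GTPase-activating protein, fell from 5.64 and 9.08 CPM to 2.77 and 3.51 CPM (log2 fold change -1.31, SE 0.35, edgeR adjusted p = 0.0262). Among the genes of phosphatases that can dephosphorylate Slt2, *SDP1* rose from 3.16 and 6.45 CPM to 42.8 and 43.2 CPM (log2 fold change 3.08, SE 0.36) and *PTP2* rose from 7.90 and 3.73 CPM to 45.3 and 43.8 CPM (2.86, SE 0.38). *PTP3* (log2 fold change -1.02, SE 0.32) and *MSG5* (-0.80, SE 0.25) fell. *SWI4*, which codes for the DNA-binding part of the other transcription factor that Slt2 acts on, fell too (log2 fold change -0.77, SE 0.24, edgeR adjusted p = 0.0436). The calls of the 5 regulators with the largest rises held with each library left out, whereas those of *LRG1*, *PTP3*, *MSG5* and *SWI4* were each lost in 3 of the 4 cases (adjusted p up to 0.167, 0.216, 0.195 and 0.209) and with scaling by library size only. The case that kept the call was without untreated library 1 for *LRG1*, without untreated library 2 for *SWI4* and without caffeine library 1 for *PTP3* and *MSG5*. The call of *TUS1* was kept only without caffeine library 2.

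The 14 output genes code for enzymes and proteins of the wall, and 6 were called higher under caffeine, 4 lower and 4 not called (median log2 fold change 0.34), again beside 22.2% and 23.6% of all genes tested, with the share called lower near that of all genes. The largest rises were those of *NCW2* (log2 fold change 3.12, SE 0.26), *PIR3* (3.04, SE 0.34), *PRM5* (2.80, SE 0.26), *PST1* (2.35, SE 0.27) and *FKS2* (2.16, SE 0.34), with edgeR adjusted p of at most 0.00399. Those that fell were *CIS3* (log2 fold change -1.62, SE 0.47), *CHS3* (-1.56, SE 0.25), *CWP1* (-1.03, SE 0.24) and *FKS1* (-1.02, SE 0.32), with edgeR adjusted p of at most 0.0415. *PST1* went from 42.4 and 56.4 CPM to 281 and 251 CPM, whereas *CWP1*, whose window above holds the same CTAAAAATAG, went from 253 and 293 CPM to 147 and 136 CPM. Of the 3 members of the cascade with the motif, *RLM1* and *MKK1* were called higher and *BCK1* was not called. *SLT2*, *MID2*, *MKK2* and *WSC1* were called higher without a match. When 1 library at a time was omitted, the calls of the 5 output genes with the largest rises and of *CHS3* held, whereas *CIS3* was lost in 2 of the 4 cases and *CWP1* and *FKS1* in 3 each (adjusted p up to 0.139, 0.0889 and 0.162). *CIS3* was lost without untreated library 1 or caffeine library 2, *CWP1* was kept only without untreated library 1 and *FKS1* only without caffeine library 1. *CWP1* and *FKS1* were also not called with scaling by library size only (adjusted p = 0.073 and 0.0961).

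**Figure D3:**
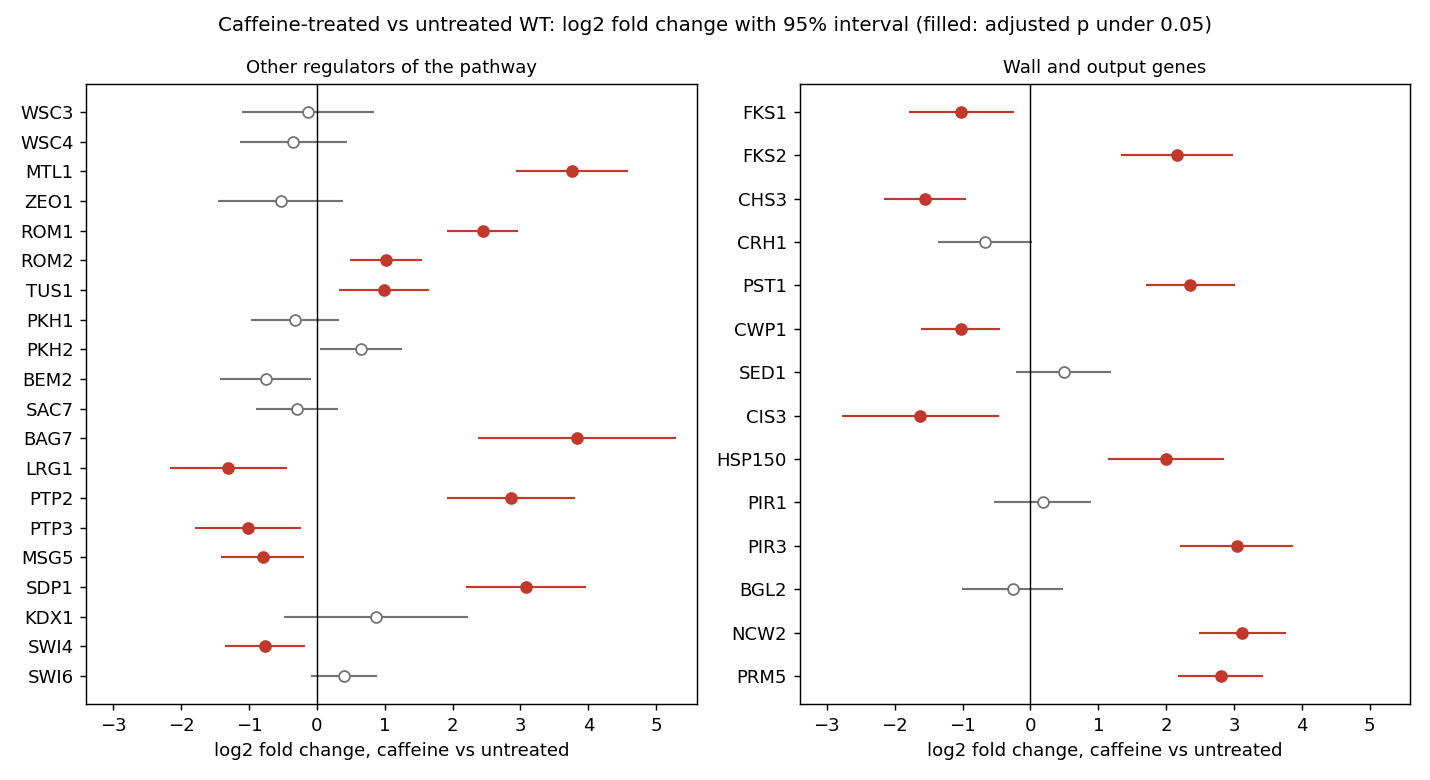
Log2 fold change of caffeine-treated against untreated WT (x axis) with its 95% confidence interval for the 20 other regulators and the 14 output genes, 1 row per gene, with filled points for an edgeR adjusted p under 0.05. Calls in both directions are seen among the regulators (7 higher, 4 lower) and the output genes (6 higher, 4 lower), and the largest changes are rises.

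Several steps of the pathway are served by related genes, so the ratio of the pair was read within each library, where the scaling between libraries cancels. *FKS1* and *FKS2* (listed as *GSC2*) code for the alternative catalytic subunits of the glucan synthase that Rho1 regulates. The *FKS2*/*FKS1* count ratio was 0.151 and 0.150 in untreated WT and 1.38 and 1.32 in caffeine-treated WT, so *FKS1* had most of the pair's counts before caffeine and *FKS2* most after. The difference was 3.17 on the log2 scale (8.97-fold, pooled SD 0.04 on the log2 scale), and the exact permutation test, two-sided, gave p = 0.333, the smallest that 2 libraries per group allow. The *WSC1*/*WSC2* ratio was 0.0687 and 0.121 in untreated WT and 0.291 and 0.882 after caffeine, higher without overlap but with a wide spread (difference 2.47 on the log2 scale, pooled SD 0.90, exact permutation p = 0.333). The *MKK1*/*MKK2* ratio was 0.850 and 0.682 in untreated WT and 0.676 and 0.818 after caffeine and overlapped (difference -0.03 on the log2 scale, pooled SD 0.21, exact permutation p = 0.667).

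In the plasmid libraries the *FKS2*/*FKS1* ratio was 0.981, 1.10 and 1.28 in WT with vector, 1.14, 1.27 and 1.33 in the Yap1 overexpression strain and 1.24, 1.40 and 1.66 in the *yap1* mutant. These ratios overlapped between the 3 groups and lay near those of the caffeine libraries rather than those of untreated WT. Against WT with vector, the difference was 0.36 on the log2 scale for the mutant (pooled SD 0.20, exact permutation p = 0.2) and 0.16 for the overexpression strain (pooled SD 0.16, exact permutation p = 0.3), where 3 libraries per group allow no p below 0.1. Over the 9 ratio tests the adjusted p was at least 0.72. The high *FKS2* share in the plasmid libraries stands beside the differences in plasmid, rRNA share and possibly medium and run, whose parts cannot be told apart.

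**Figure D4:**
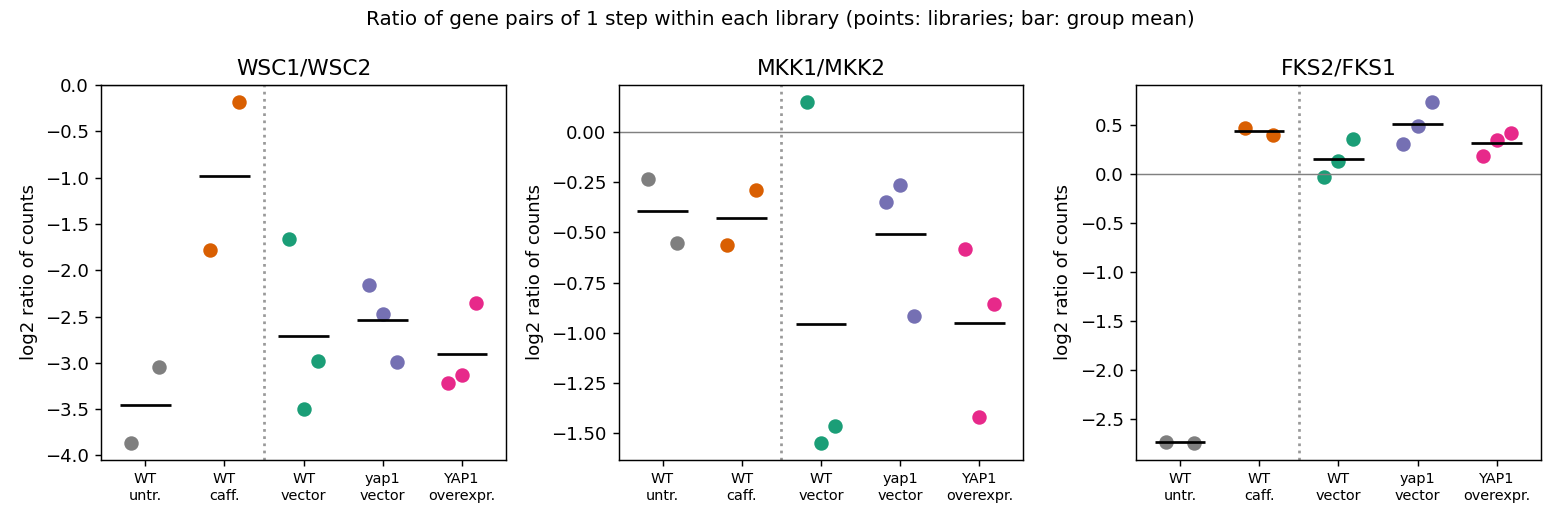
Log2 ratio of the counts of *WSC1* to *WSC2*, *MKK1* to *MKK2* and *FKS2* to *FKS1* within each library, with a point per library, a bar at each group mean and a dotted line between libraries without and with plasmid. The *FKS2* to *FKS1* ratio is low only in the 2 untreated WT libraries (linear values 0.151 and 0.150), and lies between 0.981 and 1.66 in the other 11.

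A ratio of related genes depends on whether reads of 1 can be counted on the other, since the counts took in reads with multiple alignments. The end of each coding sequence is shown because QuantSeq reads start near the 3′ end of the transcript, although many will lie in the untranslated region past it. Capitals mark the bases that differ from the partner when both are lined up at the stop codon, 12 of 75 for *FKS2* and *FKS1* and 52 of 75 for *MKK1* and *MKK2*.
FKS2, chrVII:553877-553951, plus strand: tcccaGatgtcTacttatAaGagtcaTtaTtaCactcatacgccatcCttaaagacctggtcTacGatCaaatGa
FKS1, chrXII:815553-815627, plus strand: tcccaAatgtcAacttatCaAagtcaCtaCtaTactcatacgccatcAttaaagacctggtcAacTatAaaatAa
MKK1, chrXV:774053-774127, plus strand: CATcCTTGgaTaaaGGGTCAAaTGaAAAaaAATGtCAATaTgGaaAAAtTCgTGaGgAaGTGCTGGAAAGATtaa
MKK2, chrXVI:287514-287588, minus strand: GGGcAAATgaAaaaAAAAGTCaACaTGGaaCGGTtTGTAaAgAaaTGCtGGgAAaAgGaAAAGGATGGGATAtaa

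Over the aligned coding sequences, identity was 80.7% for *FKS2* and *FKS1*, 66.4% for *MKK1* and *MKK2* and 61.9% for *WSC1* and *WSC2*. The longest run of identical bases was 38 for *FKS2* and *FKS1*, 17 for *MKK1* and *MKK2* and 12 for *WSC1* and *WSC2*, and in the last 300 coding bases it was 14 for the *FKS* pair. No pair shared a run of 75 bases in its coding sequence. Reads in the untranslated regions were not examined.

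In the *yap1* mutant, no signalling gene passed the test against WT with vector. The rRNA shares of these groups did not overlap (values above), and their part in the differences was not tested. By edgeR 0 of the 10 genes were called, against 0.059% of the 6781 genes tested that were called higher and 0.0147% called lower. At an unadjusted p under 0.05 there were 2 of the 10 (*RLM1* and *BCK1*), against 10.2% of all genes, and DESeq2 and limma voom called 0 as well. The log2 fold changes ran from -0.40 (*BCK1*) to 1.17 (*RLM1*), with a median of 0.12 beside -0.00 for all genes. The groups did not overlap for 1 of the 10 genes, *BCK1*, against 15.4% of all genes tested.

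*BCK1* was at 25.0, 29.2 and 29.0 CPM in WT with vector and at 21.9, 17.7 and 23.6 CPM in the *yap1* mutant, all lower, with a log2 fold change of -0.40 (SE 0.18, edgeR adjusted p = 0.488). *RLM1* was at 2.93, 1.15 and 4.71 CPM in WT with vector and at 8.93, 7.12 and 3.72 CPM in the mutant. The groups overlapped, and the log2 fold change was 1.17 (SE 0.49, interval 0.09 to 2.25, edgeR adjusted p = 0.453). The lowest of these values came from replicate 2 of WT with vector, and without that library the log2 fold change was 0.79 (adjusted p = 0.41).

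*SLT2* was at 24.7, 12.6 and 21.0 CPM in WT with vector, at 25.0, 25.9 and 22.8 CPM in the mutant lacking *YAP1* and at 26.8, 22.2 and 19.96 CPM in the Yap1 overexpression strain. The 3 groups overlapped, and replicate 2 of WT with vector was the lowest library. The log2 fold change was 0.34 (SE 0.23, interval -0.17 to 0.85) in the mutant and 0.23 (SE 0.23, interval -0.28 to 0.74) in the overexpression strain. Under caffeine the log2 fold change of *SLT2* was 1.62 (interval 0.80 to 2.44). That interval overlaps the mutant's and lies above that of the overexpression strain. It comes from other libraries, and the changes were not tested against each other.

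In the Yap1 overexpression strain, again no signalling gene passed the test against WT with vector. By edgeR 0 of the 10 genes were called, against 0.442% of all genes tested called higher and 0.0295% called lower, and DESeq2 and limma voom called 0. At an unadjusted p under 0.05 there was 1 of the 10 (*RLM1*), against 9.42% of all genes. No gene of the 10 was without overlap, against 14.7% of all genes. The log2 fold changes ran from -0.37 (*WSC1*) to 1.10 (*RLM1*), with a median of -0.06. *RLM1* was at 4.47, 6.78 and 7.83 CPM in the overexpression strain (log2 fold change 1.10, SE 0.49, interval 0.02 to 2.18, edgeR adjusted p = 0.521), which overlapped WT with vector, and without replicate 2 of WT with vector the log2 fold change was 0.73 (adjusted p = 0.415). The *RLM1* values of the mutant and of the overexpression strain were set against the same 3 vector libraries and are not independent of each other.

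Among the 10 genes, the sensor gene *MID2* had the largest SE in the plasmid comparisons. It was at 11.5, 1.05 and 16.1 CPM in WT with vector, at 11.4, 18.3 and 9.78 CPM in the mutant, and at 16.9, 13.8 and 14.2 CPM in the overexpression strain. The value of 1.05 CPM, from 20 counts in replicate 2 of WT with vector, stood far below the others. The intervals of the log2 fold change were wide, -1.19 to 2.13 around 0.47 in the mutant and -1.03 to 2.30 around 0.64 in the overexpression strain, and without that library the values were -0.06 and 0.11. *WSC1* was at 9.02, 3.50 and 4.94 CPM in WT with vector, at 6.57, 6.80 and 5.03 CPM in the mutant and at 3.84, 3.34 and 6.28 CPM in the overexpression strain, with overlap. *WSC2* was at 28.5, 39.5 and 39.0 CPM in WT with vector, at 29.2, 37.7 and 39.9 CPM in the mutant and at 35.8, 29.3 and 32.2 CPM in the overexpression strain, also with overlap.

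*RHO1*, *PKC1*, *MKK1* and *MKK2* likewise overlapped among the 3 plasmid groups. *RHO1* ranged from 91.7 to 124 CPM and *PKC1* from 26.5 to 40.5 CPM over the 9 libraries, and for both genes the lowest level was in replicate 2 of WT with vector. *MKK1* ranged from 4.6 to 9.92 CPM, with both ends in WT with vector, and *MKK2* from 8.79 to 16.3 CPM, with both ends in the overexpression strain. The narrowest intervals in the mutant were those of *RHO1* (-0.19 to 0.48) and *PKC1* (-0.44 to 0.27).

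Set against each other, the *yap1* mutant and the Yap1 overexpression strain did not differ past the threshold in any signalling gene. By edgeR 0 of the 10 were called, against 0.31% of all genes tested called higher in the mutant and 0.664% called lower, 0 had an unadjusted p under 0.05, against 7.89% of all genes, and DESeq2 and limma voom called 0. No gene of the 10 was without overlap, against 18.9% of all genes. The log2 fold changes of the mutant against the overexpression strain ran from -0.17 (*MID2*) to 0.46 (*WSC1*). The median was 0.04.

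The further regulators and the output genes were not called in the plasmid comparisons either, with 0 of 20 and 0 of 14 by edgeR in each of the 3. With p not adjusted, 7, 6 and 4 regulators and 1, 4 and 1 output genes were under 0.05 in the mutant, in the overexpression strain and between them, beside 10.2%, 9.42% and 7.89% of all genes tested. DESeq2 called 1 output gene in the mutant, beside 82 higher and 39 lower of all genes. It called 1 regulator in the overexpression strain, beside 83 and 9 of all genes. Limma voom called 2 regulators in the overexpression strain, beside 47 and 7 of all genes. Between the strains it called 1 regulator and 1 output gene, beside 119 and 182 of all genes. The regulator nearest the threshold was the sensor gene *WSC4*, named after its values were seen. It was at 91.8, 102 and 85.3 CPM in WT with vector and at 60.4, 41.6 and 41.0 CPM in the overexpression strain, all lower (log2 fold change -0.98, SE 0.19, edgeR adjusted p = 0.0553). In the mutant it was at 60.4, 61.3 and 82.2 CPM, also all below the same vector libraries (log2 fold change -0.46, SE 0.19, edgeR adjusted p = 0.432).

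Over the 5 groups, caffeine-treated WT had the highest mean level of 8 of the 10 signalling genes, both with the single scaling of the 13 libraries and with the libraries without and with plasmid each scaled apart. The share of all genes that were highest in caffeine-treated WT was not counted, so the 8 of 10 has no background beside it. For every member but *RHO1* and *WSC2* the order of the other groups depended on that choice, and for *WSC2* the place of caffeine-treated WT did. Levels are therefore set across the libraries without and with plasmid only as a description. For *SLT2* the means with the single scaling were 76.3 CPM in caffeine-treated WT, 24.6 CPM in the *yap1* mutant, 23.7 CPM in untreated WT, 23.0 CPM in the Yap1 overexpression strain and 19.4 CPM in WT with vector. The caffeine libraries lay above all other 11, and the remaining 4 groups overlapped, but with the sets scaled apart both untreated libraries (38.1 and 34.7 CPM) lay above all 9 plasmid libraries (at most 22.4 CPM).

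For *RLM1* the caffeine mean was 20.4 CPM, and the other means ran from 2.93 CPM in WT with vector to 6.59 CPM in the *yap1* mutant. Both untreated libraries were above all 3 of WT with vector under either scaling. For *MKK2* the caffeine mean of 13.3 CPM was close to the plasmid groups (11.3 to 12.8 CPM) and untreated WT was at 6.73 CPM, but the mean of WT with vector was 1.90 times that of untreated WT with the single scaling and 1.04 times with the sets scaled apart. *FKS2* was lower in untreated WT than in the other 4 groups under either scaling, with WT with vector at 8.20 and 4.47 times untreated WT. The place of caffeine-treated WT in the *FKS2* order turned with the scaling, below all 3 plasmid groups (238 CPM against 370 to 439 CPM) or above the overexpression strain. *WSC2* and *BCK1* changed place too. With the single scaling *WSC2* was lowest in caffeine-treated WT and *BCK1* highest in WT with vector, and with the sets scaled apart *WSC2* was lowest in the overexpression strain and *BCK1* highest in untreated WT.

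The genes whose pattern over the 5 groups was most like that of *SLT2* were found by the root mean square difference of centred mean log2 levels, over the 4848 genes whose mean was 10 CPM or more. They were *INP54* (difference 0.06), *NHP6B* (0.07), *AIM39* (0.08), *DSC3* (0.08) and *YMR31* (0.09). None of the 5 is in the lists of the pathway used here. The likeness rests on 5 group means under the single scaling and is a description.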

How the data were processed

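RNA was sequenced as QuantSeq 3′ libraries from 13 samples. For each library, the authors deposited raw read counts per gene, aligned with Bowtie2 and counted with Bedtools over unique and multiple alignments, and the submitters' processing notes name sacCer3. A blank last row in some lists was left out. Libraries were merged on gene names, which follow 2 versions (7126 rows), and the 169 rows renamed between them were joined by their order in the lists. Of these renamed rows, 100 were also tied by names in the reference and 69 by position only. One further table (30 value columns) holds fold changes and q-values for mouse genes and was not used.

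Tests were made with edgeR 4.0.16 in R 4.3.3 (filterByExpr, TMM, robust quasi-likelihood, Benjamini-Hochberg over all genes tested, threshold 0.05), with 1 fit of the 4 libraries without plasmid and 1 of the 9 plasmid libraries. Standard errors are the log2 fold change over the square root of F. Biological coefficients of variation were 25.1% and 25.8%. Ratios were tested by exact permutation with scipy 1.17.1 in Python 3.11.15. The test script was tested on simulated data. Reads carry no molecular identifiers in these counts, so totals give counting error only.

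All 10 signalling genes are described. Of the further lists, the up to 5 genes called with the largest change in each direction are named, with *FKS1* and *FKS2*. The members and lists were chosen with earlier results of these data known. Sequences, positions and windows come from RefSeq R64, to which 6082 rows were matched. Alternatives were DESeq2 1.42.0, limma 3.58.1 (voom with sample weights), library size only, upper quartile scaling, totals without rRNA rows, other filters, a replicate block, other sets of libraries, and each library left out.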

Additional observations from a re-analysis of the deposited data

How the results depend on the processing

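No value called under caffeine changed sign under any alternative (0 of 78 for the signalling genes, 0 of 142 for the regulators, 0 of 130 for the output genes). The cause of the changes below was not tested. With 1 library left out at a time, which leaves 1 library in a group that is assumed to vary like the other, the signalling genes called under caffeine numbered 2 to 5 in place of 6, with 2 without either untreated library and 3 without the second caffeine library. The regulators called numbered 7 to 8 in place of 11, and the output genes 7 to 9 in place of 10. The numbers of all genes called higher and lower under caffeine also fell in each of these cases, so the drop was not confined to these lists. The highest signalling count came without the first caffeine library and includes *WSC2* as a new lower call. Fewer of the 6 original calls therefore held than that count gives. With 1 plasmid library left out at a time, 0 to 1 regulators were called in the mutant, where the main count was 0. In the overexpression strain 0 to 3 regulators and 0 to 1 output genes were called, again in place of 0. Between the strains 0 to 1 regulators and 0 to 1 output genes were called, also in place of 0. All of these calls came without replicate 2 of WT with vector (1, 3, 1, 1 and 1), save 1 regulator in the overexpression strain without its replicate 1. Without replicate 2 of WT with vector, 77 of all genes were called higher and 23 lower in the mutant. The counts were 100 and 12 in the overexpression strain, and 122 and 173 between the strains. In the main fits they were 4 and 1, 30 and 2, and 21 and 45. Scaling by library size only moved the median log2 fold change of all genes by 0.37 under caffeine, with 2181 genes higher and 1086 lower in place of 1501 and 1593, and 6 signalling genes were still called. In the plasmid comparisons it moved the median by 0.36 in the mutant and 0.45 in the overexpression strain, and called 1 signalling gene, 1 regulator and 6 output genes in the mutant and 1, 1 and 4 in the overexpression strain, beside 285 higher and 2 lower of all genes in the mutant and 266 and 1 in the overexpression strain. DESeq2 called 1 output gene in the mutant and 1 regulator in the overexpression strain, beside 82 and 83 of all genes higher and 39 and 9 lower. Limma voom called 2 regulators in the overexpression strain, beside 47 higher and 7 lower of all genes. Between the strains it called 1 regulator and 1 output gene, beside 119 and 182 of all genes. A fit of only the 6 libraries compared also called 1 and 1 between the strains, beside 126 and 202 of all genes. Sample numbers did not meet the condition for pairing, since there are only 2 pairs without plasmid (correlation 0.40) and same-numbered plasmid libraries had correlations from -0.49 to 0.28. With the replicate block, 7 signalling genes were called under caffeine (6 higher and *WSC2* lower, adjusted p = 0.000421) and 1903 genes were higher and 1966 lower, and 0 signalling genes were called in the plasmid comparisons.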
